A study of Mus musculus with 4 samples.

Results

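The module described here is the set of nuclear genes whose products form or serve the complexes of oxidative phosphorylation (OXPHOS). Members were taken by symbol, as every row whose name begins with Ndufa, Ndufb, Ndufc, Ndufs, Ndufv, Uqcr, Sdh, Atp5, or Cox4 to Cox8, leaving out the Ndufaf assembly factors and rows ending in -ps. This gave 89 of the 32285 genes in the matrices, of which 36 belong to complex I, 4 to complex II, 8 to complex III, 18 to complex IV and 17 to complex V. The remaining 6 form no part of a complex as placed here: the complex II assembly factors Sdhaf1, Sdhaf2, Sdhaf3 and Sdhaf4, the supercomplex factor Cox7a2l, and Ndufa4l2, a paralogue of the complex IV subunit Ndufa4. Ndufa4 was counted with complex IV in spite of its name. In the annotation of GENCODE mouse release 21 (GRCm38), Ndufa13 overlaps another gene, Yjefn3, on the same strand, so its UMIs are uncertain.

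The study profiled single cells from the hemisphere opposite the injection in C57BL/6 mice that were 8 weeks (young) or 93 weeks (old) of age. Mice had received 1000 CT2A-GFP-luc cells (mouse glioma cells that carry a fluorescent and a luciferase reporter), or PBS as a sham injection, and tissue was taken 2 weeks later. The 4 libraries, 1 per group, are given below in the order young sham, young tumour, then old sham, old tumour, called library order. How many mice went into each library was not given in the sources used here. Library totals lay between 62726818 and 76652484 UMIs (unique molecular identifiers, which count captured transcripts), and members took 2.18%, 2.10%, 2.36% and 2.75% of them in library order. Between 9529 and 10571 cells per library were kept, and pairs of libraries shared 19 to 38 barcodes. Cells were gated into classes by marker genes (85.5% of 40390 cells), so each class name below stands for cells that carry that type's markers. In 10 classes all 4 libraries had at least 50 cells.

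The respiratory chain passes electrons from NADH (complex I) and succinate (complex II) through complex III to oxygen at complex IV, and the proton gradient it builds drives ATP synthesis by complex V. Most subunits are encoded in the nucleus, while a small core is encoded by mitochondrial DNA. Several complex IV subunits and the c-subunit of complex V exist as paralogues, which are known for tissue-specific use. Neurons and transporting epithelia such as the choroid plexus, which secretes the cerebrospinal fluid, are known to be rich in mitochondria, and microglia can rely on both respiration and glycolysis.

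Atp5g1, Atp5g2 and Atp5g3 all encode the c-subunit, the ring of complex V that turns as protons pass. Their sequences are shown because the leading gene differed between cell classes (below) although all 3 end in the same stretch of protein. The final 75 codons of the spliced coding sequences are given 5′ to 3′ (GENCODE release 21, GRCm38), with capitals at the 57 bases that are not the same in all 3 genes.
Atp5g1: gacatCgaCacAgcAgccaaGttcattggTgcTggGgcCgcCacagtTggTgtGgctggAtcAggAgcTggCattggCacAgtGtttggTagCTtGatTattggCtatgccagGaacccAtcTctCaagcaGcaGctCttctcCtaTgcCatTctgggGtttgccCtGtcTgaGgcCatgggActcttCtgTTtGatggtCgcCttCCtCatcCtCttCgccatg
Atp5g2: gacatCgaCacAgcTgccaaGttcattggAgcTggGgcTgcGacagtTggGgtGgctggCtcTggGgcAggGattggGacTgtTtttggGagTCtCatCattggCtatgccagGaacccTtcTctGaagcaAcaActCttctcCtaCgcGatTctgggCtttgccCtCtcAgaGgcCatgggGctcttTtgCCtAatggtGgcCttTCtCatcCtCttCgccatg
Atp5g3: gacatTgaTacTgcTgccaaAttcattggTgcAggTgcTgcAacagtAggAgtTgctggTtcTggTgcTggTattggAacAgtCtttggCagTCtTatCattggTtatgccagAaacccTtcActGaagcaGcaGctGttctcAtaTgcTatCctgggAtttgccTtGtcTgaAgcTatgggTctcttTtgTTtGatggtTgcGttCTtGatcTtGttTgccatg
Translated, these 75 codons gave the same amino acids in all 3 genes. Atp5g1 and Atp5g2 differed at 34 bases, Atp5g1 and Atp5g3 at 45, and Atp5g2 and Atp5g3 at 48. The segments lie on the minus strand within chr11:96073107-96073635 (Atp5g1), chr15:102663017-102665166 (Atp5g2) and chr2:73908596-73909296 (Atp5g3), each span including introns.

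Promoters were matched for 72 of the 89 members (RefSeq, GRCm38.p6, 250 bases before to 50 after the start). Short motifs were searched on both strands and set beside all 27025 promoters and the 9737 promoters of genes with at least 20 CPM (a gene's UMIs scaled to a class total of 1000000) in a class. The NRF1 letters GCGCATGCG, bound by nuclear respiratory factor 1, were in 8 member promoters (11.1%) against 1.95% of all and 3.86% of expressed promoters. The ETS letters CCGGAAG, the core of sites of GABP and related factors, were in 20 (27.8%) against 9.93% and 18.7%. The YY1 letters AAGATGGCG were in 7 (9.72%) against 1.64% and 3.18%, and the CREB letters TGACGTCA in 4 (5.56%) against 2.03% and 3.47%. The SP1 letters GGGGCGGGG were in 13.9% against 12.9% and 25.1%, and TATAAA in 12.5% against 15.7% and 9.15%. The letters of the 6 motifs were searched independently, and a match describes the sequence and is not a bound site.

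The promoters of 4 members whose paralogue shares are described below are shown with every motif match in capitals. Cox8a and Cox8b encode alternative forms of the smallest complex IV subunit, and Atp5g1 and Atp5g2 were the leading c-subunit genes of the choroid plexus and of microglia.
Cox8a, chr19:7217567-7217866, minus strand: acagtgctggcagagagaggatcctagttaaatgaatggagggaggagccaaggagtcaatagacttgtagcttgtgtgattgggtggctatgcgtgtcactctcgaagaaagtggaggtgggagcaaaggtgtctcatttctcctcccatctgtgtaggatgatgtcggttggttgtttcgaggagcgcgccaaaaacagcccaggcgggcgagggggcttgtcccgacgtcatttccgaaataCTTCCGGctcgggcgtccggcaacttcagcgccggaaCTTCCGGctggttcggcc
Cox8b, chr7:140900397-140900696, minus strand: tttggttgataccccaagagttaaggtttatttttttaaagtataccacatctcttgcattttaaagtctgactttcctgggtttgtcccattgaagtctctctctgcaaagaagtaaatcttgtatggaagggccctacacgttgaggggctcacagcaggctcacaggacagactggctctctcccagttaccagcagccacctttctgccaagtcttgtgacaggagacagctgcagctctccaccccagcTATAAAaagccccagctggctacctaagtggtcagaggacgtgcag
Atp5g1, chr11:96075582-96075881, minus strand: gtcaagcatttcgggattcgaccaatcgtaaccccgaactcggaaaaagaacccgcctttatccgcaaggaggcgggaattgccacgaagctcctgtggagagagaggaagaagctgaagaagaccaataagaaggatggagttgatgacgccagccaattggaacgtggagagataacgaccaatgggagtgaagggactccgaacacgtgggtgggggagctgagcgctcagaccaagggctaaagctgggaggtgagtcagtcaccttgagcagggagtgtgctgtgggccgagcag
Atp5g2, chr15:102670998-102671297, minus strand: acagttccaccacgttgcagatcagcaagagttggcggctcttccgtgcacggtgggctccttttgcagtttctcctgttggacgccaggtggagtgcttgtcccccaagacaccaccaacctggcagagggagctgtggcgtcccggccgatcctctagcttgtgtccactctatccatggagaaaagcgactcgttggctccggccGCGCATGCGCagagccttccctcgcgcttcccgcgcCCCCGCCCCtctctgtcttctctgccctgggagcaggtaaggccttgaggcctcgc
Cox8a held the ETS letters at 2 places, both on the opposite strand, and Cox8b held TATAAA only. Atp5g2 held overlapping NRF1 matches on both strands and an SP1 match, and Atp5g1 held none of the 6 motifs.

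Transcripts of the module made up the largest share of UMIs in choroid plexus epithelium and, among the 10 classes with 50 cells in every library, the smallest in the 2 macrophage classes. In choroid plexus epithelium, members took 5.83%, 5.32%, 6.39% and 6.12% of all UMIs in library order, a mean of 5.91% ± 0.455 (SD, n = 4 libraries of different groups). In microglia, the resident macrophages of the brain tissue, they took 1.18%, 1.37%, 1.21% and 1.30%, a mean of 1.27% ± 0.0882 (SD, n = 4). Every choroid library lay above every library of the other 9 classes.

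**Figure D1:**
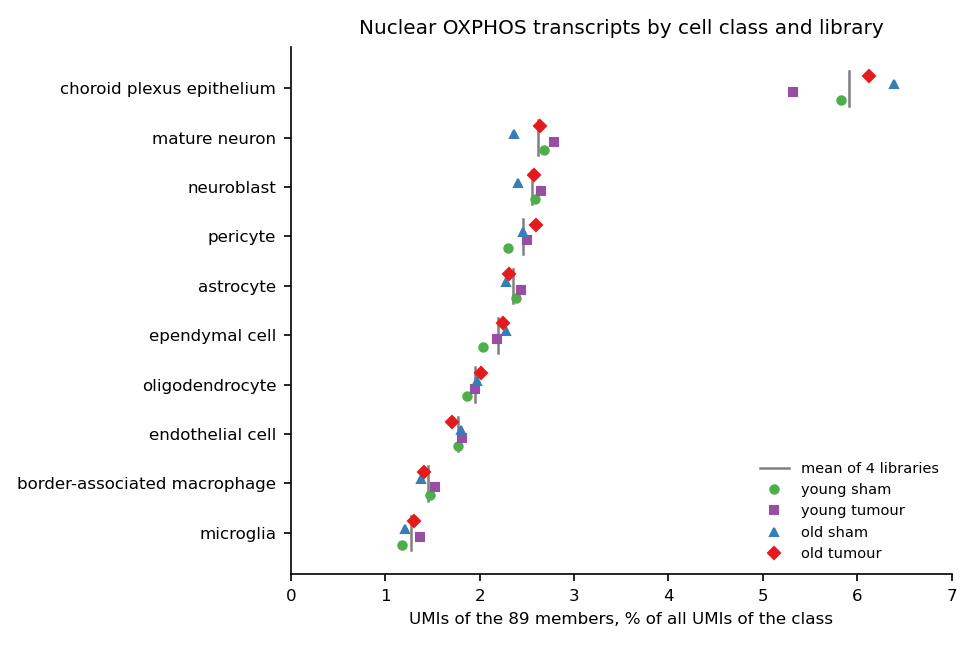
Percentage of each class's UMIs that came from the 89 members (x axis), by cell class (y axis); points are the 4 libraries and the grey line is their mean. Choroid plexus epithelium lies between 5.32% and 6.39%, apart from all other classes, and microglia lie between 1.18% and 1.37%.

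Between these ends, mature neurons (2.62% ± 0.185), neuroblasts (2.56% ± 0.101), pericytes (2.46% ± 0.122) and astrocytes (2.35% ± 0.0714, each SD, n = 4) followed one another with overlapping ranges, so neighbours in that part of the order did not differ beyond their spread. The place of mature neurons (55 to 98 cells a library) holds for summed UMIs, in which cells with many UMIs weigh most: the median share per neuron was 1.76%, 1.58%, 1.51% and 1.38% in library order, below the medians of oligodendrocytes (1.87% to 2.02%) and, in the same library, of endothelial cells (1.75% to 1.83%). Ependymal cells (2.19% ± 0.106), oligodendrocytes (1.95% ± 0.0609), endothelial cells (1.77% ± 0.0442) and border-associated macrophages (1.45% ± 0.0679) then followed, each below the class before it in all 4 libraries and without overlap of the ranges. The lowest astrocyte library (22815 CPM) was close to the highest ependymal library (22785 CPM). Other classes reached 50 cells in fewer libraries. Among them vascular smooth muscle cells of the old tumour library reached 2.73%, and neutrophils, which are known to live mainly on glycolysis, took the smallest share of all classes, 0.940% and 0.795% in the young sham and old tumour libraries. A class with 270 cells in the young tumour library that carried Hmga2 and other fixed markers had 2.07%.

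These percentages share a total with every other transcript of the class. In choroid plexus epithelium, Ttr, the thyroid hormone carrier that the choroid plexus secretes, alone took 28.4% to 30.2% of UMIs. With Ttr left out of the total, a choice made after its level was seen, the choroid share was 8.38% instead of 5.91%, while microglia stayed at 1.27%. The defining markers of other classes were low in the choroid class. The ependymal list summed to 403 to 525 CPM and the astrocyte list to 380 to 508 CPM, against 4465 to 5040 CPM for its own list.

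The choroid plexus lead ran through most members. Of the 86 members that reached 20 CPM in a class, 69 (80.2%) had their highest class mean in choroid plexus epithelium, against 4.20% of the 12369 genes that reached the same level. In 60 of the 69, every choroid library was above every library of the other 9 classes. The same count was not made over all genes, so it is not set against a background. The median ratio of the choroid mean to the median of the other classes was 2.58 for members and 0.537 for all genes. The 17 members that peaked elsewhere included Sdha, the flavoprotein of complex II (astrocytes, 162 ± 8.89 CPM), Ndufs1, the large iron-sulphur subunit of complex I (mature neurons, 104 ± 3.64 CPM), and Ndufs7, an iron-sulphur subunit of complex I (pericytes, 426 ± 16.1 CPM, each SD, n = 4). At the other end, microglia had the lowest mean for 49 of the 86 and border-associated macrophages for 18.

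All 5 complexes were higher in choroid plexus epithelium than in microglia. Complex I summed to 17612 ± 1165 CPM in choroid plexus epithelium and 4187 ± 347 in microglia, and complex IV to 16593 ± 1547 and 2933 ± 220 (SD, n = 4). Complex V summed to 17805 ± 1307 and 3552 ± 279 CPM, complex III to 5812 ± 519 and 1114 ± 89, and complex II, which also serves the citric acid cycle, to 813 ± 69.0 and 335.2 ± 21. Complex I therefore gave 29.8% ± 0.400 of the members' UMIs in choroid plexus epithelium, and 37% ± 0.499 in astrocytes, 37.6% ± 0.342 in oligodendrocytes and 38.0% ± 0.967 in ependymal cells. Complex IV gave 28.0% ± 0.512 in choroid plexus epithelium and 22.3% ± 0.592 in endothelial cells. In pericytes, 11.8% ± 0.544 of the members' UMIs came from members placed in no complex, mostly from Ndufa4l2 (2557 ± 143 CPM). The complexes kept nearly the same order of classes: over the 10 class means, Spearman's rho was 0.87 between complexes I and IV, 0.92 between I and V and 0.95 between IV and V, values that describe 10 points sharing the same 4 libraries.

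**Figure D2:**
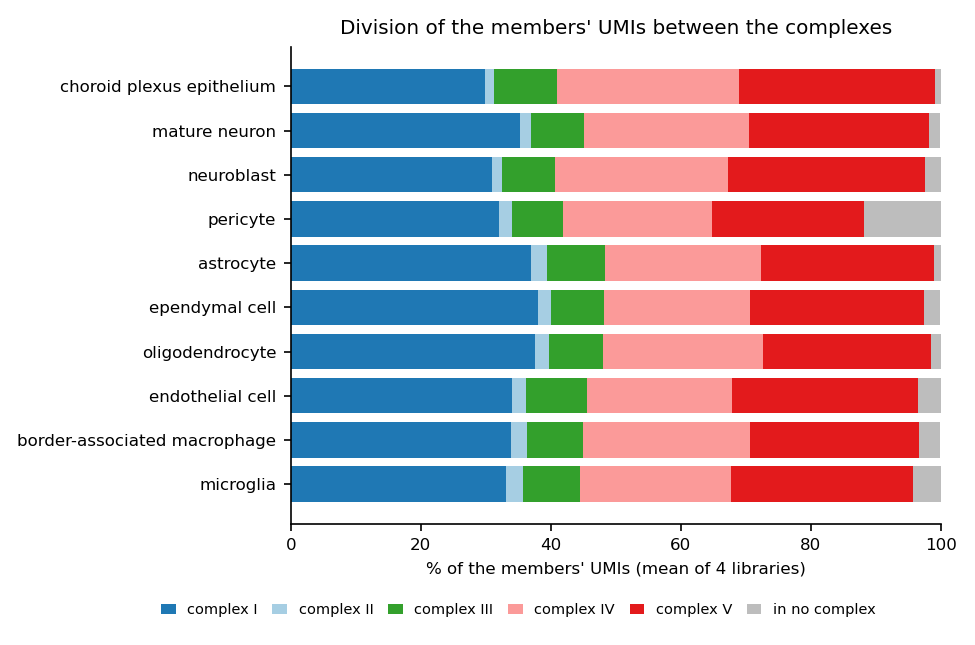
Stacked bars of the percentage of the members' UMIs (x axis, mean of 4 libraries) that each complex gave in each of the 10 classes (y axis); grey stands for the 6 members placed in no complex. The grey part reaches 11.8% in pericytes, and complex I has its smallest share, 29.8%, in choroid plexus epithelium.

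The most abundant member over all classes was Cox4i1, a subunit that joins complex IV early in its assembly, at 1154 CPM. It was followed by Cox8a at 711 CPM and Atp5h, a subunit of the stator stalk of complex V, at 640 CPM. Members that varied least over the classes were Sdhaf2, Sdha, Ndufa9, Ndufb4 and Sdhaf3. For Sdha the highest class mean (162 CPM, astrocytes) was 1.88 times the lowest (86.2 CPM, border-associated macrophages). Sdhaf2, which adds the flavin to Sdha, spanned a 1.74-fold range, from 21.2 CPM in microglia to 36.7 in astrocytes. Some members of complexes I, III and IV spanned far more. Ndufa1 ran from 57.5 ± 3.89 CPM in oligodendrocytes to 622 ± 62.1 in choroid plexus epithelium, Ndufa11 from 99.9 ± 12.5 in border-associated macrophages to 1100 ± 108, and Uqcr10 from 98.2 ± 14.0 in microglia to 961 ± 126 (SD, n = 4).

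Several catalytic or cofactor-binding subunits were also highest in choroid plexus epithelium, unlike Sdha and Ndufs1 (above). Atp5b, the catalytic beta subunit of complex V, was at 1142 ± 147 CPM in choroid plexus epithelium and 218 ± 20.4 in border-associated macrophages. Atp5a1, its alpha partner, was at 740 ± 80.1 in the former and lowest in microglia, at 219 ± 7.77. Uqcrfs1, the Rieske iron-sulphur protein of complex III, ran from 266 ± 30.7 to 75.1 ± 15.9 CPM between choroid plexus epithelium and border-associated macrophages, and Ndufv1, the NADH-binding subunit of complex I, from 168 ± 14.9 to 36.0 ± 19.2 (SD, n = 4). Among the members outside the complexes, Sdhaf1 was highest in pericytes (82.8 ± 15.1 CPM) and Sdhaf4, which assists the joining of Sdha and Sdhb, in ependymal cells (179 ± 10.8 CPM).

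The widest ranges of all belonged to paralogues. Each gene of a paralogue group was expressed as a percentage of the group's UMIs in a class. Since transcripts can differ in how well they are captured, these percentages are compared between classes and are not protein ratios.

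Pericytes, the mural cells of brain capillaries, carried Cox4i2 and Ndufa4l2 at levels seen in none of the other 9 classes. Cox4i2, a Cox4 form known from lung and carotid body and tied to oxygen sensing, was at 1054, 1200, 1138 and 1426 CPM in pericytes, in library order. It gave 53.0% to 56.5% of the Cox4 pair in the 4 libraries, against 1.42% to 1.67% in astrocytes, 1.12% to 1.40% in endothelial cells and at most 0.609% in the other 7 classes. Ndufa4l2, known as a target of hypoxia-inducible factors, was at 2470, 2436, 2567 and 2755 CPM, while its paralogue Ndufa4 was at 98.8, 101, 107 and 50.9 CPM. Ndufa4l2 thus gave 96.0% to 98.2% of that pair in pericytes, 3.70% to 4.85% in endothelial cells and at most 1.10% in the other 8 classes. The pericyte libraries did not overlap those of any other class for either gene. By cell, 88.3% to 93.6% of pericytes held at least 1 UMI of Ndufa4l2 (57 to 111 cells a library, median 1430 to 2029 UMIs per cell), against 0.326% to 0.837% of oligodendrocytes at 5074 to 6358 UMIs per cell. The related vascular smooth muscle cells, measured in old tumour only, had 15% Ndufa4l2 and 4.05% Cox4i2 of the respective pairs. The pericyte list summed to 35796 to 44067 CPM there, and the astrocyte list to 4863 to 6674 CPM. The neutrophil list reached 11169 CPM in the young sham pericytes and 0 to 35.6 CPM in the other 3 libraries. Whether these other transcripts bear on the paralogue shares was not tested.

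Choroid plexus epithelium stood apart in the c-subunit and in 3 further complex IV groups. Atp5g1 was at 2905, 2606, 2826 and 2972 CPM in the 4 libraries and gave 66.6% to 67.7% of the c-subunit UMIs. In microglia it gave 25.3% to 27.4%, and Atp5g2, the gene with the NRF1 letters in its promoter, gave 57.9% to 62.2%. In mature neurons Atp5g1 and Atp5g3 gave overlapping shares, 36.0% to 40.4% and 35.4% to 38.1%, with 22.7% to 28.1% from Atp5g2. Cox6b2, known from testis, gave 20.7% to 23.8% of the Cox6b pair in choroid plexus epithelium (263 ± 40.0 CPM, SD, n = 4). In pericytes it gave 8.75% to 16.2%, from 6 to 12 UMIs a library, with intervals that reach the choroid shares in 3 of the 4 libraries. Cox7a1, the heart and muscle form, reached 52.0 ± 8.14 CPM in choroid plexus epithelium and 4.01% to 5.11% of its group. Cox8b, also a heart and muscle form, gave 6.20% to 14.9% of the Cox8 group, against at most 1.27% in any other of the 10 classes.

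**Figure D3:**
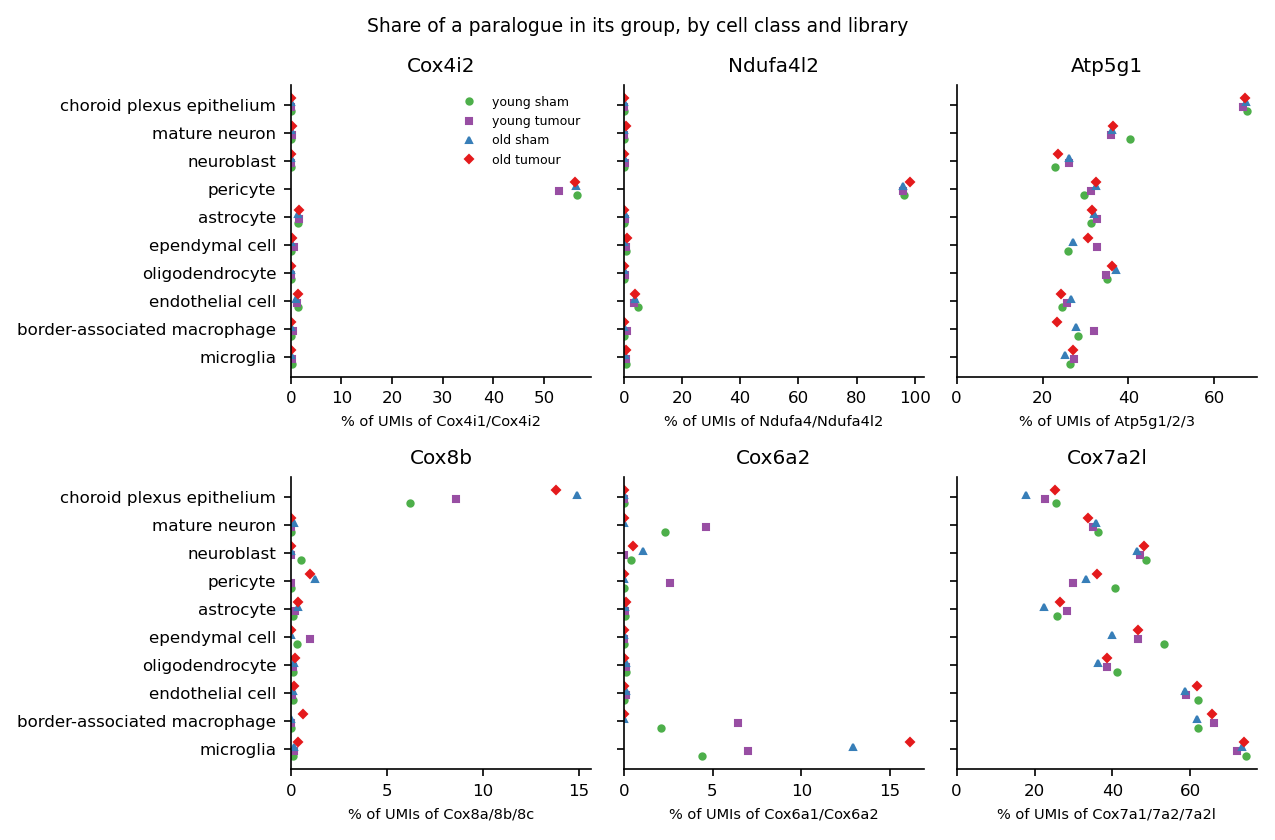
Percentage of a paralogue group's UMIs (x axis, linear and starting at 0 in each panel) that came from the named gene, by cell class (y axis) and library (points), for 6 groups. Cox4i2 and Ndufa4l2 stand out in pericytes, and Atp5g1 and Cox8b in choroid plexus epithelium. Cox6a2 is highest in old microglia, and Cox7a2l is high in both macrophage classes and in endothelial cells.

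In microglia the leading gene of the Cox7a group was Cox7a2l. Cox7a2l is known as a factor for joining complexes III and IV into supercomplexes. Whether its product does so in the mouse strain used here was not tested. Cox7a2l gave 72.1% to 74.3% of the Cox7a group in microglia and 61.7% to 66.1% in border-associated macrophages. Its share was 58.6% to 62.1% in endothelial cells and 17.7% to 25.4% in choroid plexus epithelium. Its own level peaked in neuroblasts (506 ± 16.4 CPM) and was lowest in astrocytes (115 ± 11.9), while the microglial share went with a low Cox7a2, at 25.7% to 27.9% of the group. Astrocytes were the class with the most Cox7b2, which gave 1.86% to 2.56% of the Cox7b pair there. Cox7b2, Cox6a2 and Cox8c were the 3 members whose mean over the libraries reached 20 CPM in none of the 10 classes, and Cox8c had 1 UMI in all.

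The 4 libraries allow an age comparison within each injection and an injection comparison within each age. Since a group is a single library, no p-value is given for a difference between groups. Setting the 2 old against the 2 young libraries could not give an exact two-sided permutation p below 0.333. Ratios carry exact 95% intervals that cover counting error only, and comparisons that share a library are not independent. A gene was called when its ratio was at least 1.5-fold either way, among genes with at least 20 CPM in 1 of the 2 libraries.

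The old sham library stood apart from the other 3 in transcripts outside the module. Gm42418, a transcript that overlaps a ribosomal RNA locus, took 1.04% of its microglial UMIs against 2.86% to 3.24% in the other libraries, and 1.63% against 4.95% to 5.72% in astrocytes. Malat1, a nuclear RNA, took 13.8% of UMIs in its astrocytes against 8.32% to 8.93%. Whatever sets this library apart cannot be told apart from age or injection in the comparisons that use it, which are old sham against young sham and old tumour against old sham.

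In microglia, the largest class with 2407 to 3661 cells a library, member transcripts differed little with age. Their sum was 1.02 times as high in old sham as in young sham (95% interval 1.01 to 1.03) and 0.951 times as high in old tumour as in young tumour (0.944 to 0.958). Of 81 members tested in sham mice, 2 were called higher, where 4.64% of all genes tested were, and 1 lower, where 3.53% were. With cells weighted equally, 0 were called higher and 1 lower. In tumour-bearing mice 1 of 81 was higher and 0 were lower, against 1.5% and 1.83% of all genes. The median log2 ratio was 0.02 over members and -0.06 over all genes in sham mice, and -0.11 and -0.01 in tumour-bearing mice.

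Cox6a2, the heart and muscle form of a regulatory complex IV subunit, was the tested member with the highest age ratio in both comparisons, and it passed the 20 CPM minimum only through the old libraries. In library order it was at 5.99, 10.7, 21.7 and 29.4 CPM in microglia (81, 123, 276 and 346 UMIs). Both old libraries were above both young ones. The old to young ratio was 3.62 (2.82 to 4.70) in sham and 2.74 (2.22 to 3.39) in tumour-bearing mice. Its paralogue Cox6a1 was at 130, 143, 147 and 153 CPM, so Cox6a2 gave 4.39%, 7.00%, 12.9% and 16.1% of the pair. At least 1 UMI was found in 1.86%, 2.96%, 7.09% and 8.14% of microglia, at medians of 3612, 3202, 4918 and 4660 UMIs per cell. With every cell thinned to 1000 UMIs (60 to 188 shallower cells per library left out), the shares were 0.576%, 0.547%, 1.85% and 2.34%. In astrocytes, 0.0419% to 0.105% of cells held a UMI at medians of 3024 to 3722 UMIs, and in border-associated macrophages 0% to 4.88% did. Of B cells, 5.62% (5 of 89 cells) did in young sham, and 0% in young tumour and old tumour. In mature neurons the shares were 3.80%, 1.82%, 0% and 0% in library order. The 5 microglia richest in Cox6a2 held 12% to 20.3% of its microglial UMIs in a library. Dendritic cells are a class that microglial gating could admit. Their list (Ccr7, Flt3, Zbtb46, Xcr1, Clec9a, Cd209a and Il12b) summed to 3.55, 7.16, 1.73 and 4.59 CPM in the same microglia. Dendritic cells that lack these genes would not show in that sum, and their part in the Cox6a2 UMIs was not tested.

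The other called members were close to the threshold. Atp5mpl, a short membrane subunit of complex V, was at 66.0 CPM in the young and 101 in the old sham library (ratio 1.53, 1.41 to 1.67), and at 86.1 and 88.9 in the tumour libraries. Sdhaf1, which helps load iron-sulphur clusters into Sdhb, was at 40.2 and 26.1 CPM in young and old sham (ratio 0.649, 0.564 to 0.745), and at 37.4 and 35.9 in the tumour libraries. For Sdhaf1 old sham was the library apart from the rest, and for Atp5mpl young sham was the lowest and old sham the highest. Sdhd, a membrane anchor of complex II, lay just inside the threshold with a ratio of 0.678 (0.616 to 0.746) in sham mice, where old sham was again the lowest library at 55.4 CPM against 78.1 to 85.5.

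Below the threshold, the highest age ratios in sham mice were those of Cox7c (1.31), Uqcrh, the hinge protein of complex III (1.29, 1.23 to 1.35), and Atp5e, the epsilon subunit of complex V (1.26). The lowest after Sdhd were those of Sdhaf2 (0.728, 0.607 to 0.872) and of the complex I core subunits Ndufs8 (0.739, 0.687 to 0.795) and Ndufs3 (0.783, 0.724 to 0.846). None of these was an extreme in tumour-bearing mice, where the next highest after Cox6a2 was Ndufa5 at 1.12 (1.01 to 1.23) and the lowest was Cox5a at 0.738 (0.696 to 0.783). Complex I summed to 0.922 times, and complexes III and IV to 1.13 and 1.12 times, the young level in old sham. In old tumour all 5 complexes lay between 0.930 and 0.981 times the young tumour level.

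Between tumour-bearing and sham mice, the microglial sum of members was 1.16 times as high in the young (1.15 to 1.17) and 1.08 times as high in the old (1.07 to 1.09). In young mice 1 of 80 members tested was called higher and 0 lower, against 2.80% and 1.33% of all genes. In old mice 0 of 81 were called in either direction, against 1.66% higher and 3.16% lower. The shift in young mice was spread over the module: 71 of 80 ratios were above 1, with a median log2 ratio of 0.18 against -0.04 over all genes. In old mice 67 of 81 were above 1, with medians of 0.12 and 0.03. The called member was Atp5k, the small e-subunit of complex V, at 52.8 CPM in the sham and 80.9 in the tumour library of young mice (ratio 1.53, 1.39 to 1.69), with 62.1 and 68.2 in the old libraries. With cells thinned to 1000 UMIs, or with cells weighted equally, 0 members were called in this comparison. Cox5a, an early-entering subunit of complex IV, followed at 163 and 232 CPM (ratio 1.42, 1.34 to 1.51), then Atp5j2 and Uqcr10 (each 1.39). In old mice the highest ratios were those of Sdhd (1.41, 1.28 to 1.56), Sdhaf1 (1.38, 1.19 to 1.59), Cox6a2 (1.36, 1.15 to 1.59) and Sdhaf2 (1.35, 1.12 to 1.63). The 3 genes of complex II and its assembly among them were also those lowest in old sham against young sham, a comparison that shares the old sham library. By complex, the young ratio was 1.12 for complex I, 1.07 for complex II, 1.21 for complex III, 1.19 for complex IV and 1.19 for complex V. The lowest young ratios were 0.874 for Ndufs1, 0.917 for Uqcrc1, a large core protein of complex III, 0.930 for Sdhaf1, 0.945 for Ndufv1, which binds NADH, and 0.955 for Ndufa9, all with intervals that include 1.

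Members with short coding sequences were higher than those with long ones in 2 of these comparisons. Across the members tested in microglia, Spearman's rho between coding length and log2 ratio was -0.69 for young tumour against young sham (80 members) and -0.61 for old sham against young sham (81 members), which share the young sham library. Over all genes tested the same values were -0.25 and 0.13. In the former comparison the median log2 ratio was 0.32 for the 36 members shorter than 393 coding bases, the members' median, and 0.15 for the 44 others. In the latter it was 0.14 for 37 and -0.07 for 44. In the other 2 comparisons rho was -0.033 and 0.081. Core subunits of complex I, which hold its catalytic centres and are among the longer members, had a median log2 ratio of -0.04 for young tumour against young sham (7 subunits), and the accessory subunits 0.19 (29 subunits). The same sign was seen for young tumour against young sham in the next 4 classes (-0.37 in astrocytes, -0.51 in oligodendrocytes, -0.46 in endothelial cells, -0.49 in choroid plexus epithelium) and for old sham against young sham (-0.22, -0.42, -0.44 and -0.68), while in pericytes the values were -0.072 and 0.11. For old tumour against old sham, rho in the same 4 classes was 0.11, 0.26, 0.41 and 0.64, and -0.058 in pericytes. For old tumour against young tumour it was 0.16, -0.048, 0.32 and 0.14, and 0.18 in pericytes. Over all genes, the values in the 4 classes were -0.11, -0.046, 0.13 and 0.17 for young tumour against young sham. They were 0.21, 0.24, 0.16 and 0.38 for old sham against young sham. All these values describe genes within the same libraries, and whether transcript length or integrity has a part in them was not tested.

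**Figure D4:**
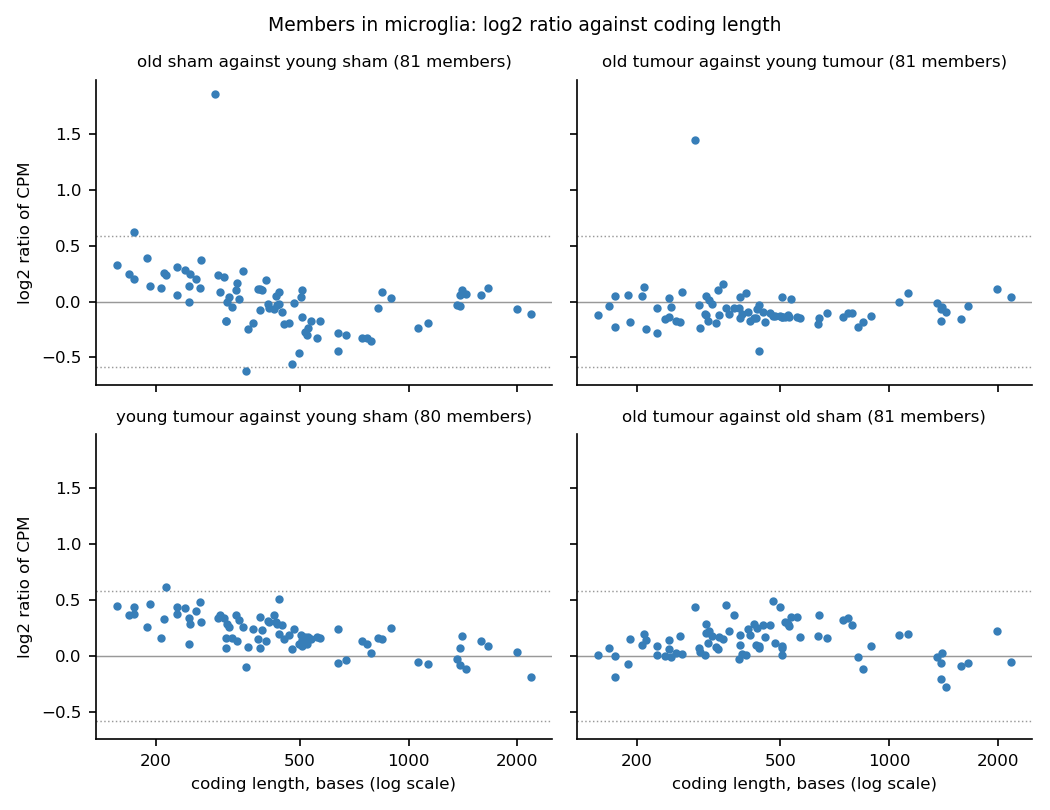
Log2 ratio of CPM in microglia (y axis) against coding length in bases (x axis, log scale) for the members tested in each of the 4 comparisons; each point is 1 member, the solid line marks no difference and dotted lines mark 1.5-fold. Cox6a2 is the single point far above the rest in both age comparisons, and the points slope downward in both comparisons made against young sham.

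Cells of microglia also differed between libraries in transcripts outside the module. Immediate early genes, which dissociation can induce, summed to 24843, 11483, 32589 and 16133 CPM in library order, so both sham libraries were above both tumour libraries. Cytosolic ribosomal protein genes took 9.75%, 11.9%, 13.4% and 12.7% of microglial UMIs. The part of either in the member ratios was not tested.

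In astrocytes, oligodendrocytes and endothelial cells no member was called in any of the 4 comparisons, with 80 or 81 members tested in each. The background in the order old sham against young sham, old tumour against young tumour, young tumour against young sham and old tumour against old sham was 2.93%, 1.55%, 0.807% and 1.56% of genes in astrocytes. It was 6.49%, 4.93%, 0.689% and 0.940% in oligodendrocytes, and 6.62%, 4.05%, 1.64% and 2.32% in endothelial cells. Counts of 0 are near the share of all genes where that share was about 1% to 2%, and below it in the age comparisons of oligodendrocytes and endothelial cells. The summed ratios in these 3 classes ran from 0.945 (old tumour against young tumour, endothelial cells) to 1.06 (old sham against young sham, oligodendrocytes). Among named members, Ndufa5, an accessory subunit of the peripheral arm of complex I, had the highest age ratio in oligodendrocytes of sham mice (1.38, 1.28 to 1.5) and in endothelial cells of sham mice (1.31, 1.16 to 1.48). Sdhb, the iron-sulphur subunit of complex II, had the lowest ratio in astrocytes of old tumour against old sham (0.760, 0.704 to 0.820).

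In choroid plexus epithelium (130 to 507 cells a library), Cox8b was the single member called in both age comparisons, 1 of 83 members in each, against a background of 17.5% in sham and 10.2% in tumour-bearing mice. Among genes that reached 100 CPM, the level of most members there, the background was lower, 7.60% and 2.85%. In library order it was at 190, 208, 509 and 444 CPM, with both old libraries above both young ones. The old to young ratio was 2.68 (2.41 to 2.99) in sham and 2.13 (1.83 to 2.50) in tumour-bearing mice. At least 1 UMI of Cox8b was found in 45.1%, 45.4%, 72.1% and 75% of choroid cells at medians of 6646, 4734, 7490 and 11252 UMIs per cell. At 1000 UMIs per cell the shares were 17.2%, 18.7%, 29.2% and 31.2%. In astrocytes 0.460% to 1.26% of cells held a UMI at medians of 3024 to 3722. Cox8a, its paralogue, was at 2867, 2209, 2906 and 2770 CPM. No member was called between tumour-bearing and sham mice, against 14.1% of genes in young and 13.2% in old mice. Among genes that reached 100 CPM these shares were 3.33% and 5.61%. The members' sum was 1.09 times (1.09 to 1.10) as high in old as in young sham mice and 1.15 times (1.14 to 1.16) as high in old as in young tumour-bearing mice, with 81 of 83 ratios above 1 in the latter. Ndufa5 was at 233, 221, 346 and 273 CPM in library order, with an old to young ratio of 1.48 (1.33 to 1.65) in sham mice, just inside the threshold. Ndufs1, at 97.7 CPM in young sham choroid cells, had the lowest ratio of young tumour to young sham (0.670, 0.492 to 0.899), just inside the threshold.

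The genes of mitochondrial DNA did not follow the nuclear members closely. Their 13 protein-coding transcripts summed to 72091 ± 16244 CPM in astrocytes, 63049 ± 8144 in choroid plexus epithelium and 22849 ± 3358 in microglia (SD, n = 4). Over the 10 class means Spearman's rho with the nuclear members was 0.54, a description. UMIs of mitochondrially encoded genes per member UMI were 1.16, 1.34, 0.834 and 0.979 in choroid plexus epithelium, and 3.25, 3.31, 2.10 and 3.57 in astrocytes. Old sham had the lowest ratio in 10 of 10 classes. In astrocytes, 6 of the 13 transcripts were called lower in old sham than in young sham and 7 were called higher in old tumour than in old sham, and 0 were called in the other 2 comparisons. Of all astrocyte genes, 2.93% and 1.56% were called in either direction in the former pair. In astrocytes mt-Co3 was at 16893, 17638, 9237 and 17826 CPM. Members had a summed astrocyte ratio of 0.956 (0.950 to 0.963) for old sham against young sham.

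**Figure D5:**
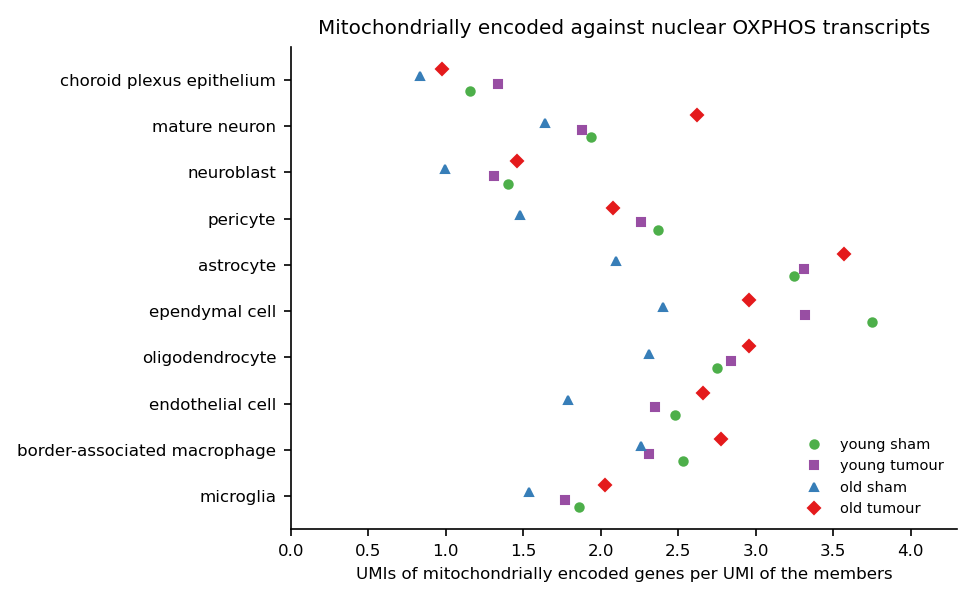
UMIs of mitochondrially encoded genes per UMI of the 89 nuclear members (x axis), by cell class (y axis) and library (points). Old sham is the leftmost point in all 10 classes, and choroid plexus epithelium (0.834 to 1.34) and neuroblasts (0.997 to 1.46) have overlapping low ratios.

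Genes that build, feed or control the complexes were taken from lists with earlier results of these data known. Assembly factors summed to 2311 ± 121 CPM in choroid plexus epithelium, 2446 ± 131 in mature neurons and 1337 ± 88.5 in microglia (SD, n = 4). Citric acid cycle genes summed to 3497 ± 311, 2746 ± 306 and 1014 ± 31.1 CPM in the same classes. Glycolysis genes summed to most in astrocytes (9311 ± 421 CPM), followed by choroid plexus epithelium (8324 ± 909). Their sum was 2804 ± 230 CPM in microglia and 1328 ± 108 in border-associated macrophages. The glycolysis list held Aldoc, which was also a marker in the astrocyte gate, so the astrocyte sum was not independent of the gate. The order of classes without Aldoc was not computed. Antioxidant genes, a list that held Sod1, Gpx1 and Cat as well as Sod2, Prdx3 and Prdx5, summed to 4835 ± 292 CPM in choroid plexus epithelium. Elsewhere they summed to at most 2379 ± 55.6 CPM, in ependymal cells. These sums do not show which antioxidant genes set the level. The list of regulators of mitochondrial genes held Nrf1, Gabpa and Tfam, and also Hif1a, Epas1, Myc, Sp1 and Yy1. It summed to 289.4 ± 41.2 CPM in choroid plexus epithelium and 298.7 ± 49.4 in border-associated macrophages, and to most in endothelial cells (1703 ± 92.2). The sums do not show which of its genes set this order.

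Across the 4 comparisons in microglia, 0 of the 21 to 23 assembly factors tested, 0 of 17 or 18 citric acid cycle genes and 0 of 14 carrier genes were called. Of the glycolysis genes, 1 of 16 was called higher and 1 lower in each age comparison, beside 4.64% and 3.53% of all genes in sham and 1.5% and 1.83% in tumour-bearing mice, shares that also apply to the other age counts here. Slc16a3, a lactate transporter, was at 22.5 and 36.8 CPM in young and old sham, and Pfkfb3, which makes the activator of phosphofructokinase, at 60.8 and 99.7 CPM in young and old tumour. Aldoc, which is also an astrocyte marker, was the lower gene in both, at 26.6 and 17 CPM in sham. In sham mice Aldoc passed the 20 CPM minimum only through the young library. Of 71 mitochondrial ribosomal protein genes, 3 were lower in old than in young sham. Of 9 regulators, Myc, a growth factor-induced transcription factor, was the 1 called higher with age in both comparisons, at 21.7, 15.2, 34.9 and 23.6 CPM in library order; in tumour-bearing mice it passed the minimum only through the old library. Prdx5, a mitochondrial peroxiredoxin, was the single antioxidant called, at 271 CPM in the sham and 444 in the tumour library of young mice (2.80% of all genes were higher), with 305 and 326 in the old libraries.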

How the data were processed

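Single-cell 3′ libraries were deposited as matrices of counts (whole UMIs per gene and barcode, not normalized). Per the submitters' processing notes, reads were processed with Cell Ranger 3.0.2 on mm10 and Seurat 2.3.4, whereas the matrix headers name Cell Ranger 6.1.0, and this was not resolved. A strain label that varies in its last digit from sample to sample was not used.

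Barcodes were kept from 500 UMIs and 200 genes upward, with a limit of 20% mitochondrial UMIs. The cells ranked highest by Scrublet (scanpy 1.11.5) were removed at 0.8% per 1000 barcodes (4113 cells), leaving 40390. A cell joined the class with the largest share of its markers detected, given at least 3 markers and no other class above 0.5 of that share (34547 cells). UMIs were summed over the cells of a class in a library and scaled to the class total (CPM). Intervals are exact (conditional Poisson for ratios, Clopper-Pearson for shares), at 95% and for counting error only, and a count of 0 was set to 3. No test was made, as a group is 1 library. The calculation was tested on simulated counts.

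Named members follow a rule: in microglia, the 5 highest and 5 lowest ratios of each comparison with at least 100 UMIs and 20 CPM, 2 of each in the next 4 classes, the 10 widest and 5 narrowest ranges over classes, the 10 most abundant, all 8 paralogue groups, core subunits and members in no complex. Members, lists and markers were chosen with earlier results of these data known. Alternatives covered class totals, scaling, cell filters, doublets, averaging, thinning, gating, the expression minimum and the fold. The values of 1 member are not reported here.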

Additional observations from a re-analysis of the deposited data

Results flagged for a closer look

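In border-associated macrophages, 2 members had age ratios past 1.5-fold in opposite directions in sham and tumour-bearing mice, and in pericytes 1 member did. These differences between ratios were not tested, since each group is 1 library, and all rest on few UMIs. In border-associated macrophages 44.8% of all genes passed 1.5-fold with age in sham and 37.9% in tumour-bearing mice. In pericytes the shares were 47.6% and 42.3%. The share of all genes past it in opposite directions was not counted, so these members are not set apart from other genes. In border-associated macrophages, Cox7b, a small complex IV subunit, had an old to young ratio of 1.63 in sham and 0.541 in tumour-bearing mice, from 17, 77, 31 and 36 UMIs in library order. Ndufs8, an iron-sulphur subunit of complex I, had ratios of 1.85 and 0.615 there, from 13, 47, 27 and 25 UMIs. In pericytes, Ndufs1 had an old to young ratio of 0.652 in sham and 3.07 in tumour-bearing mice, and tumour to sham ratios of 0.363 (young) and 1.71 (old), from 15, 5, 5 and 18 UMIs.

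The row Ndufb1-ps, which the naming rule left out because of its suffix, had 114, 149, 127 and 153 CPM over all barcodes of the same 4 libraries (4595, 6467, 5402 and 7079 UMIs). This is a level in the range of the members themselves.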

How the results depend on the processing

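Of 80 alternative values for the summed level and the member count in microglia, 55 stayed within the limits set for them, 25 moved and 0 called values changed sign; for those that moved, the cause was not tested. The log2 ratio of summed members was 0.03 for old against young sham. It was 0.09 without mitochondrially encoded and ribosomal protein genes, 0.09 with median-centred scaling, 0.02 as a mean over cells and -0.01 with cells thinned. For old against young tumour it was -0.07, and -0.06, -0.02 and -0.01 without those genes, as a mean over cells and thinned. For young tumour against young sham it was 0.21, and 0.26, 0.25, 0.15 and 0.12 under those 4 settings in the order first given. For old tumour against old sham it was 0.11, then 0.12 without mitochondrially encoded genes and 0.08 median-centred.

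Counts of called members, 3, 1, 1 and 0 in the same order of comparisons, became 5, 4, 2 and 4 with a minimum of 1 UMI in place of 20 CPM, and 13, 2, 20 and 9 when a 25% rise or the matching fall was enough. As a mean over cells the first was 1 and the third 0, and thinned the third was 0 and the fourth 2. The share of all genes called under each of these settings is not given here. These counts therefore show how the calls depend on the setting and are not set against a background. Alternatives chosen after seeing the data gave old to young ratios of 3.47 to 4.28 (sham) and 2.70 to 3.67 (tumour) for Cox6a2 in microglia, and 2.36 to 2.79 and 1.92 to 2.25 for Cox8b in choroid plexus epithelium. Cox4i2 gave 54.1% to 56.0% of its pair in pericytes under them. Without the old sham library the module took 5.76% of choroid and 1.29% of microglial UMIs. No paired analysis was possible because the labels give the groups 1 library each and so fewer than 2 shared replicate numbers. Depth limits pericytes and border-associated macrophages most, where many members had few UMIs.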
